A study of Mus musculus with 2 samples.

Results

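The heavy chain of an antibody is encoded by variable (V), diversity (D) and joining (J) gene segments that lie upstream of the constant region genes. The segments measured here are the features (transcript clusters) of a whole-transcript array that carry exactly 1 gene symbol, beginning with Ighv, Ighd or Ighj followed by a digit. Of 61344 features on the array, 28573 carried exactly 1 symbol and 117 of these met the rule, 113 of them V segments and 4 D segments. No feature with exactly 1 symbol named a J segment, because the 4 J segments shared 1 feature with constant region genes.

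The arrays profiled cells that the labels call ILCreg, regulatory innate lymphoid cells, a population sorted by flow cytometry out of small intestine cells. The mice were C57BL/6, of the genotype IL-10-GFP knockin (green fluorescent protein placed at the interleukin 10 locus), and 8 weeks of age. There was 1 group with 2 arrays, called replicate 1 and replicate 2, and no comparison population. Nothing in the labels says whether the replicates came from separate mice or sorts, so their spread may be technical. With 1 group no test between groups exists, and counts, medians and differences are given as descriptions.

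During B cell development 1 V, 1 D and 1 J segment are joined by recombination, and each B cell or plasma cell clone then transcribes 1 productive V segment together with a constant region. Plasma cells, which secrete antibody and are abundant in the wall of the small intestine, transcribe their rearranged heavy chain gene at very high levels. Innate lymphoid cells express no rearranged antigen receptor and do not make antibody. Mouse V segments are sorted by sequence likeness into families, the number after Ighv. Family 1, also called J558, is the most numerous in this strain. Members of a family are so alike that a probe for one can bind the transcript of another, so the features of a family are not independent measurements. How far such sharing set the signals below was not tested.

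Signal compares 1 segment between arrays or with the threshold; it does not order different segments by transcript abundance, since probes differ in how well they bind. Signals are the authors' values, taken as log2 from their range, which ended at 19.86. A feature was called above the threshold when it exceeded, on both arrays, the 95th percentile of 1490 olfactory, vomeronasal and taste receptor features, a value of 6.69 for replicate 1 and 6.15 for replicate 2. Of the receptor features 35 (2.35%) met this. On these arrays 104 of the 117 heavy chain features (88.9%) lay above the threshold, against 32.3% of all features with exactly 1 symbol. All 104 were V segments, and none of the 4 D segments passed. The median signal of the 117 features was 12.75 on replicate 1 and 11.97 on replicate 2, and that of all features with exactly 1 symbol was 5.49 and 5.38. Mean signals over both arrays ran from 3.17 to 19.83, so the segments filled nearly the whole scale of the array. In all, 83 segments lay above the 90th percentile of all features (9.57) and 15 above the 99th (15.71).

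**Figure D1:**
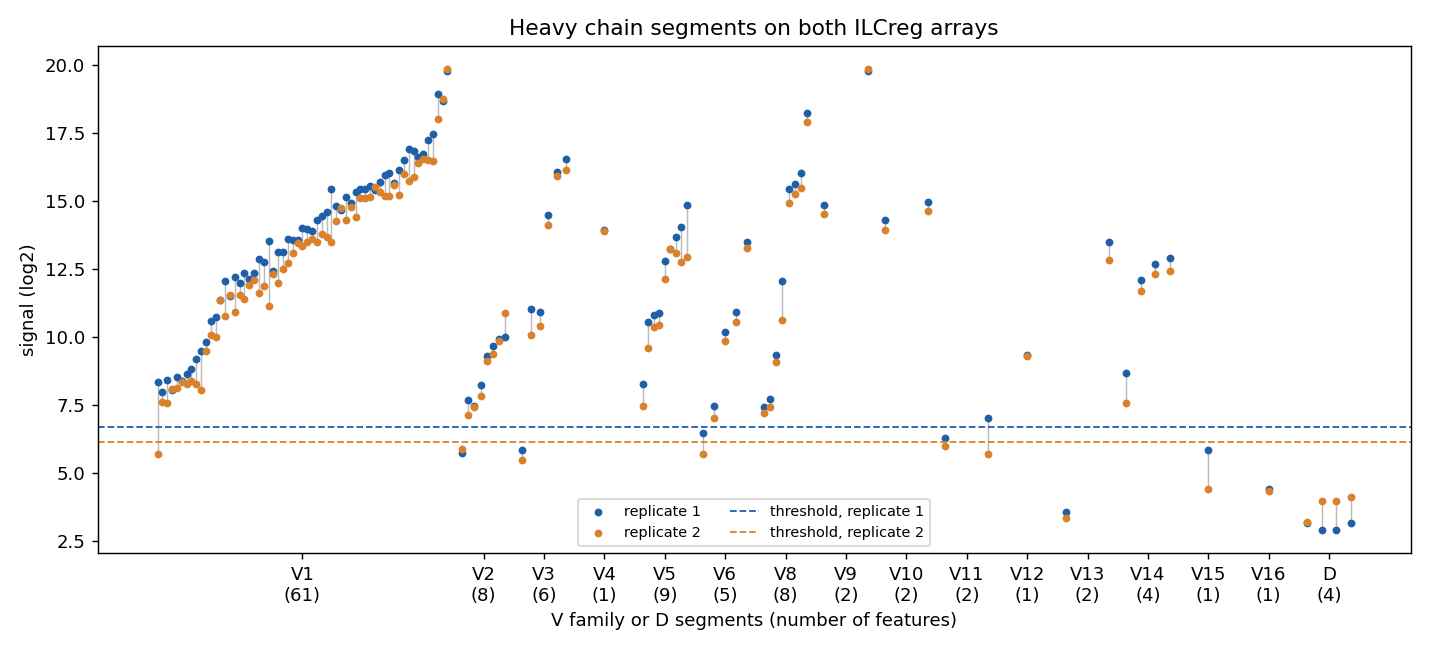
Signal (log2) of each of the 117 heavy chain features on replicate 1 (blue) and replicate 2 (orange), ordered by mean signal within each V family and within the D segments, with the threshold of each array as a dashed line; a grey line joins both values of a feature. Family 1 spans mean signals from 7.02 to 19.83. Families 11, 15 and 16 and the D segments have no feature above the threshold on both arrays. Blue points lie above orange ones for 103 of the 117 features. Of all 28573 features with exactly 1 symbol, not drawn here, 16200 were higher on replicate 1.

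The highest signals came from segments of families 1, 8 and 9. Ighv1-2 and Ighv9-3 lay within 0.001 of the highest value of each array, 19.80 on replicate 1 and 19.86 on replicate 2. Their levels are lower bounds and have no order. Ighv1-2 is listed as a pseudogene in the RefSeq gene table of GRCm38.p6, whereas Ighv9-3 is listed as a V segment. Ighv1-73 had a signal of 18.70 on replicate 1 and 18.76 on replicate 2. Its difference equalled that of the highest values, 0.06, within 0.0001, so its spread is not read as a replicate error either. Ighv1-53 reached 18.94 and 18.00, and Ighv8-12 reached 18.22 and 17.90. Above 16, which is the log2 of the highest reading of a 16-bit scanner, lay 17 segments on replicate 1 and 11 on replicate 2. The step that gave values above that limit is not known.

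Family 1 held 61 of the 113 V features. Of these, 60 passed the threshold on both arrays, with a median signal of 13.88 on replicate 1 and 13.46 on replicate 2, and 42 had a mean signal over 12. Below the 3 highest already named, Ighv1-82 had 17.48 on replicate 1 and 16.48 on replicate 2, and Ighv1-14 had 17.23 and 16.52. Near the middle of the family stood Ighv1-37 with 14.01 and 13.35. Ighv1-72, the segment used by most C57BL/6 antibodies against the model hapten nitrophenyl, had 12.21 and 10.93. The lowest member, Ighv1-67, gave 8.36 on replicate 1 but 5.69 on replicate 2 and was the only segment of the family not to pass on both. The mean signals of the family had an SD of 3.02 between members, and the pooled replicate SD was 0.60. The first also holds the differences between probes, so the order within the family was not tested.

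Ighv1-62-2 and Ighv1-71 had the same value on each array, 15.45 on replicate 1 and 15.10 on replicate 2. The D segments Ighd5-7 and Ighd6-1 likewise shared 2.89 and 3.96. The 117 features thus held 115 distinct pairs of values. Features with equal values on both arrays are 1 measurement, whichever segment gave the signal, but the counts given here hold each of them. With such features counted once, 103 of 115 passed the threshold.

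Families 2 (also called Q52) and 5 alternate nearest the D segments in the gene table. In family 2, 7 of 8 segments passed, with medians of 8.78 and 8.45 on replicates 1 and 2, and no member had a mean over 12. Its highest segment, Ighv2-5, gave 9.99 on replicate 1 and 10.87 on replicate 2, the reverse of the usual order. Its lowest, the pseudogene Ighv2-1, gave 5.72 and 5.88 and passed on neither array. In family 5 all 9 segments passed, with medians of 12.81 and 12.12. They ran from Ighv5-2, with 8.27 on replicate 1 and 7.47 on replicate 2, to Ighv5-12, with 14.87 and 12.93. Of the 9 members of family 5, 5 had a mean over 12.

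Family 8 spanned low and high signals. All 8 passed, with 4 between Ighv8-6 (15.44 on replicate 1 and 14.91 on replicate 2) and Ighv8-12. The lower end was Ighv8-4, with 7.42 and 7.20. In family 3, 5 of 6 passed. Ighv3-6 was highest with 16.55 and 16.12, and Ighv3-3 was lowest with 5.83 and 5.49 and passed on neither array. Family 6 had 4 of 5 above the threshold, between Ighv6-6 at 13.51 and 13.28 and Ighv6-4 at 6.45 and 5.68, the latter passing on neither array. In family 14 all 4 passed, from Ighv14-3 at 8.68 and 7.56 to Ighv14-4 at 12.92 and 12.41.

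The remaining families had 1 or 2 measured segments each. Both segments of family 9 passed, Ighv9-4 giving 14.84 on replicate 1 and 14.51 on replicate 2 beside Ighv9-3 at the ceiling. Both of family 10 passed too, with Ighv10-3 at 14.97 and 14.62 and Ighv10-1 at 14.31 and 13.93. The single segment of family 4, Ighv4-1, had 13.94 and 13.90, an SD of 0.02. Family 13 was split between Ighv13-2, at 13.49 and 12.82, and Ighv13-1, at 3.55 and 3.34, which was the lowest V segment measured. Ighv15-2 with 5.83 and 4.42 and Ighv16-1 with 4.40 and 4.33 passed on neither array.

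B-1 cells are a self-renewing B cell subset whose antibodies against phosphatidylcholine use family 11 or 12. The segments of these families differed in whether they passed the threshold. Ighv11-2 had a signal of 7.01 on replicate 1 and 5.68 on replicate 2 and passed only on the first. Ighv11-1 had 6.29 and 5.98 and passed on neither. Ighv12-3 passed on both with 9.32 and 9.31.

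In all, 9 V segments did not pass on both arrays. Ighv1-67 and Ighv11-2 passed on replicate 1 alone. The other 7, Ighv2-1, Ighv3-3, Ighv6-4, Ighv11-1, Ighv13-1, Ighv15-2 and Ighv16-1, passed on neither. A segment below the threshold was not distinguishable from the receptor features, which does not show that its transcript is absent. By mean signal over both arrays, the lowest segment that passed was Ighv6-7, with 7.46 on replicate 1 and 7.01 on replicate 2.

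The D segments, the short elements between V and J, all lay below the threshold on both arrays. Ighd5-8 was highest among them with 3.14 on replicate 1 and 4.13 on replicate 2, and Ighd6-2 was lowest with 3.15 and 3.19. All 4 are listed as pseudogenes in the gene table, so no D segment listed as a gene was measured by a feature of its own. The gene table lists 120 V segments outside the pseudogenes. Of these 110 were measured here, 9 were named only by features with several symbols, and 1 was not analysed here. Of 63 V pseudogenes 3 were measured, Ighv1-2, Ighv1-30 and Ighv2-1. Ighv1-30 gave 13.61 on replicate 1 and 12.71 on replicate 2, and lay above the threshold, as did Ighv1-2 at the ceiling.

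Along the locus, as the gene table orders it, the 42 V segments on the D side of the first member of family 1 included all members of families 2, 3, 5 and 6. Of them 35 (83.3%) passed, with medians of 10.68 on replicate 1 and 10.22 on replicate 2. From the first member of family 1 onward, 69 of 71 (97.2%) passed, with medians of 13.98 and 13.48. The latter were mostly family 1, so family and position cannot be told apart here.

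**Figure D2:**
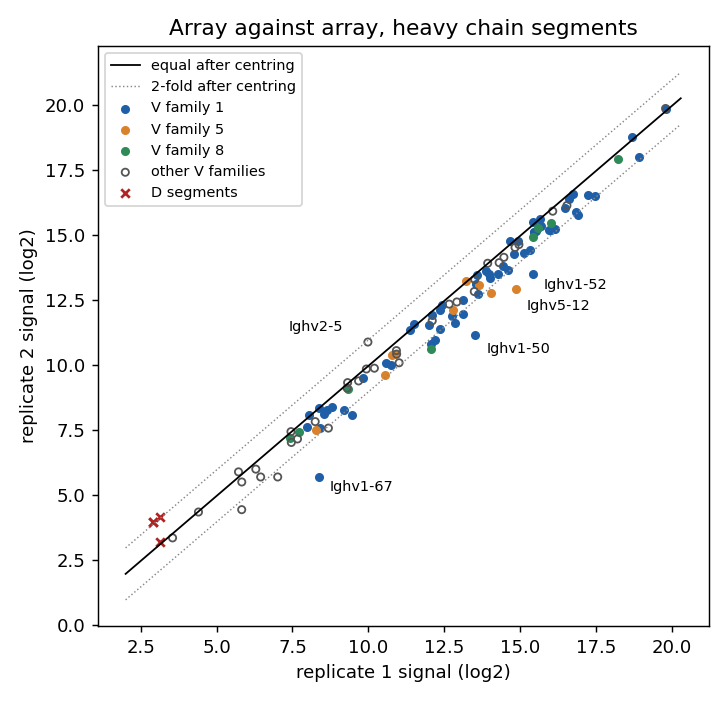
Signal (log2) of each heavy chain feature on replicate 1 (horizontal) and replicate 2 (vertical); the solid line marks equal signal after centring on the median feature and the dotted lines a 2-fold difference, with families 1, 5 and 8 in blue, orange and green, other V families as open circles and D segments as red crosses. Points follow the line over the whole scale but most lie below it, with Ighv1-50 (13.53 and 11.14), Ighv1-52, Ighv5-12 and Ighv1-67 farthest below and Ighv2-5 above.

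The arrays ranked the segments alike but the array of replicate 1 gave the higher values. Across the 117 features Pearson's r between the arrays was 0.989 and Spearman's rho 0.990; features share an array and sequence and are not independent replicates. The difference of replicate 2 minus replicate 1 was centred on the median difference of all features with exactly 1 symbol, -0.05. So centred, 98 segments were higher on replicate 1 and 19 on replicate 2, with a median of -0.37. Of all 28573 features with exactly 1 symbol, 14286 were higher on replicate 1, an even split that the centring sets. Uncentred, 103 segments were higher on replicate 1 and 14 on replicate 2, and 16200 of all 28573 features were higher on replicate 1. Among all 1158 features with a mean over 12 the median centred difference was -0.02, and among the 63 heavy chain segments in that range it was -0.43. The pooled replicate SD was 0.54 over the segments and 0.31 over all features with exactly 1 symbol. With 1 array on each side, no difference could be checked in a further replicate.

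Among the 104 segments that passed, 12 (11.5%) had a signal over 2-fold higher on replicate 1, against 2.05% of all features above it. None of these features with exactly 1 symbol was over 2-fold higher on replicate 2, against 2.18% of all features above it. After quantile normalization of both arrays the counts were 15 toward replicate 1 and 0 toward replicate 2, and the shares of all features were 2.53% and 1.59%. The 12 comprised 8 of family 1, 2 of family 5, and 1 each of families 8 and 14. Since segments of a family share sequence, the 12 are not 12 separate observations. The fold values hold only if the log base is 2.

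Ighv1-50 had the largest such difference, 13.53 on replicate 1 against 11.14 on replicate 2, which is 5.04-fold after centring. Ighv1-52, the next measured segment in the gene table, had 15.44 against 13.48, 3.75-fold. Ighv5-12 had 14.87 against 12.93, 3.71-fold. A further feature, which names Ighv5-12 together with Ighv5-15 and so entered no count, ran the other way, with 8.31 on replicate 1 and 9.59 on replicate 2. Ighv8-5 (12.06 against 10.61) and Ighv1-7 (9.47 against 8.06) were 2.65-fold and 2.57-fold higher on replicate 1. The replicate SDs of these 5 segments, 1.00 to 1.69 against 0.54 pooled over the whole set, only restate the differences by which they were chosen. Ighv1-67 had a centred difference of -2.62 but lay below the threshold on replicate 2, where its signal has no exact level.

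Among segments above the threshold, 1 came near a 2-fold difference in the other direction. Ighv2-5 was 0.93 higher on replicate 2 after centring, just short of 2-fold. Next among segments above the threshold came Ighv1-49, with 15.41 on replicate 1 and 15.50 on replicate 2, a centred difference of 0.14, and Ighv1-62-1, with 14.67 and 14.76, a centred difference of 0.13. The values of Ighv1-2 and Ighv9-3, each 0.11 after centring, are set by the ceiling. Ighv1-73, also at 0.11, lay below the ceiling but had the same difference as the highest values, and why was not tested. The D segments Ighd5-7, Ighd6-1 and Ighd5-8 were 1.11, 1.11 and 1.03 higher on replicate 2, and the pseudogene Ighv2-1 was 0.20 higher, all 4 below the threshold on both arrays.

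**Figure D3:**
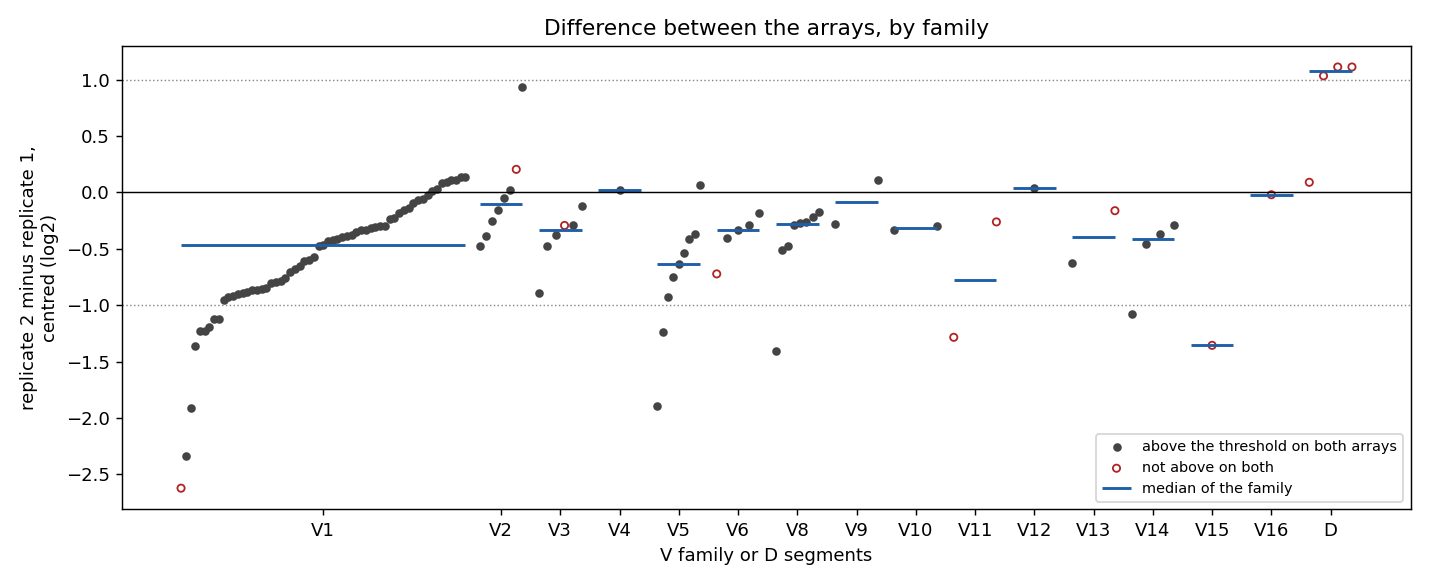
Centred difference (replicate 2 minus replicate 1, log2) of each heavy chain feature by V family and for the D segments, with filled dark points for features above the threshold on both arrays, open red points for the others, blue bars for medians and dotted lines at a 2-fold difference. Medians lie below 0 in every V family except family 4 (0.02) and family 12 (0.04), which have 1 feature each.

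By family the median centred difference was -0.46 for family 1, with 53 of 61 segments higher on replicate 1. It was -0.64 for family 5 (8 of 9) and -0.41 for family 14 (4 of 4). Families 6, 3 and 8 had medians of -0.34, -0.33 and -0.28, with every one of their 5, 6 and 8 segments higher on replicate 1. Family 2 had the smallest tilt of the larger families, with a median of -0.10 and 5 of 8 segments higher on replicate 1. Uncentred, the counts were 55 of 61 in family 1 and 6 of 8 in family 2, against 16200 of all 28573 features with exactly 1 symbol. By level and centred, 56 of the 63 segments with a mean over 12 and 42 of the other 50 V segments were higher on replicate 1. Among all 1158 features with a mean over 12, 607 were. Whether families differed in this tilt was not tested.

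V segments of other antigen receptor loci were set beside these. The kappa light chain, which pairs with the heavy chain in most mouse antibodies, had 86 V features. Of these 70 (81.4%) lay above the threshold, against 32.3% of all features with exactly 1 symbol. The medians of the 86 were 11.24 on replicate 1 and 11.16 on replicate 2. T cell receptor V features were mostly low. Of 85 alpha chain (Trav) features 7 (8.24%) passed, with medians of 5.50 and 5.31, and none of 21 beta chain (Trbv) or 5 delta chain (Trdv) features did. The median centred difference was 0.01 for the kappa segments, -0.02 for Trav and -0.13 for Trbv, against -0.39 for the 113 heavy chain V segments. Among the 70 kappa segments that passed, 2 (2.86%) differed over 2-fold toward replicate 1 and 1 (1.43%) toward replicate 2. The shares of all features above the threshold were 2.05% and 2.18%. No test of a difference between loci was made, since segments of a locus are not replicates.

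**Figure D4:**
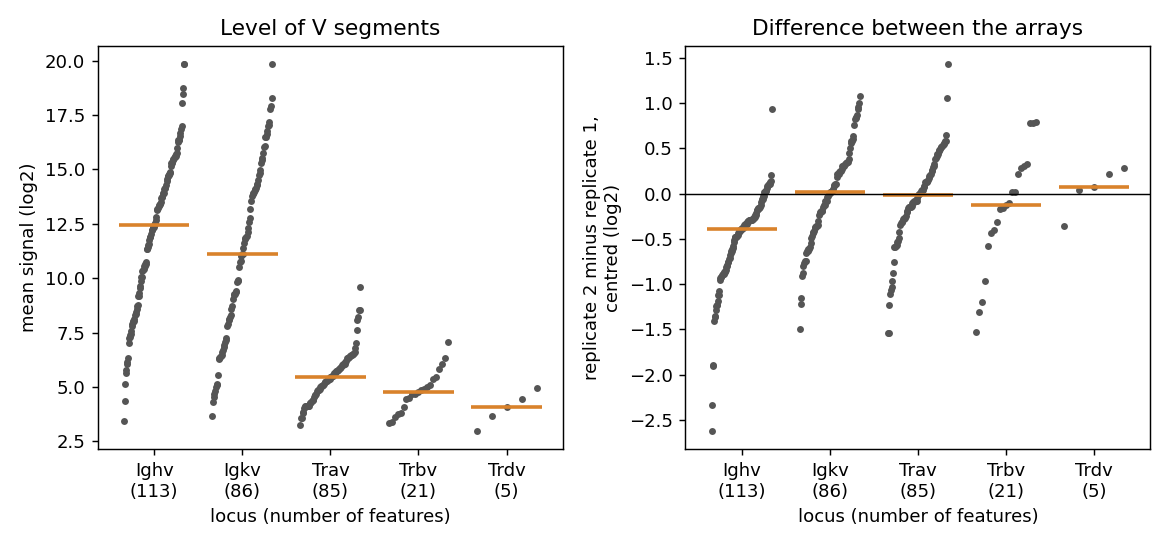
Mean signal (left, log2) and centred difference between the arrays (right, log2) of V features of the heavy chain (Ighv), kappa (Igkv) and T cell receptor alpha (Trav), beta (Trbv) and delta (Trdv) loci, each point a feature and each orange bar a median. Heavy chain and kappa features reach 19.83, Trav features at most 9.60, and the heavy chain median of the difference, -0.39, lies below those of the other loci.

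Constant region and plasma cell genes gave the following values on the same arrays. Of 8 listed constant region genes 4 were measured by a feature with exactly 1 symbol, and Igha, Ighd, Ighg2c and Ighg3 were not. Ighm, the constant region of IgM, had 11.81 on replicate 1 and 12.26 on replicate 2, and Ighg2b, that of IgG2b, had 12.46 and 12.79. Ighg1 with 6.66 and 6.15 and Ighe with 3.89 and 3.99 did not pass. Of 11 measured plasma cell genes 10 passed (90.9%, against 32.3% of all features). The median mean signal of the 11 was 8.22, against 5.43 for all features with exactly 1 symbol and 8.42 for those above the threshold. Only 2 of the 11 had a mean over 12, and Sdc1, for example, had 7.13 on replicate 1 and 7.51 on replicate 2. Highest was Jchain, which encodes the chain that joins IgA and IgM into polymers, at 17.47 and 18.11. The secretory regulator Xbp1 had 13.24 and 13.76, and the receptor gene Tnfrsf17, at 6.38 and 5.54, was the one that did not pass. The log2 of the summed signal of these 11 genes was 17.59 on replicate 1 and 18.21 on replicate 2. Jchain alone, at 17.47 and 18.11, made up most of this sum. After centring, 7 of 11 were higher on replicate 2. The same held for 14286 of all 28573 features with exactly 1 symbol and for 5105 of the 9240 above the threshold. Ighm and Ighg2b were higher on replicate 2, by 0.50 and 0.37 after centring, the opposite direction to most V segments. Of the constant region genes that did not pass, Ighg1 went the other way, at -0.47, and Ighe was at 0.14.

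Genes of earlier B cell stages lay near the level of all features. Of 10 measured B cell genes 4 passed (40.0%, against 32.3% of all features), and their median mean signal, 5.43, equalled that of all features with exactly 1 symbol. The transcription factor gene Ebf1 was highest at 7.27 on replicate 1 and 7.16 on replicate 2, and Cd79a, a signalling chain of the B cell receptor, had 6.76 and 7.41. The low-affinity IgE receptor gene Fcer2a, at 4.58 and 4.73, was lowest. The log2 summed signal of the list was 9.56 and 9.55. Another list held genes of V(D)J recombination, pre-B cells and later antibody gene diversification, and none of its 5 measured members passed. The recombinase subunit gene Rag2 had 4.15 and 4.01. Ung, a DNA repair gene that acts in class switching and hypermutation and not in V(D)J joining, had 5.29 and 5.39. Pou2af1, the B cell coactivator that binds octamer factors at immunoglobulin promoters, passed with 7.23 and 7.11. Pigr, the receptor by which gut epithelial cells carry polymeric IgA into the lumen, had 14.87 and 14.79. Of 7 measured innate lymphoid genes 4 passed (57.1%, against 32.3% of all features). Id2 had 12.23 and 11.93 and Il7r 8.52 and 9.32, whereas Thy1 (5.56 and 5.72) and Ncr1 (4.63 and 4.71) did not pass. Of 6 T cell genes 4 passed (66.7%), with Cd3e highest at 9.68 and 9.90 and Cd247 lowest at 5.32 and 4.94. The part of plasma cells or B cells in the signal of the heavy chain segments was not tested, and in such bulk samples fewer cells of a type and less RNA per cell cannot be told apart.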

How the data were processed

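The deposited table holds 1 value per feature and array, which the authors processed and which was taken as log2 signal from its range; for the log base, background correction, summarization, scaling and build, the sources used here say nothing. The submitters' processing notes name MAS5 with no version or role. Per the labels' protocols, RNA was extracted with TRIZOL, treated with DNase and labelled by the GeneChip WT Pico method. Array medians over all features were 5.02 and 4.90, and the number of arrays, 2, limits the precision.

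Symbols came from the platform annotation; a feature counted as having exactly 1 symbol when it was written once or repeated. Of the others, 2014 features carried several symbols and 30757 none. The 117 members kept their symbols when updated through Entrez identifiers. Other gene lists were named through those identifiers, with the feature of highest mean signal where a gene had several. That choice favours passing the threshold in those lists. Segment types and order came from the RefSeq table of GRCm38.p6; no coordinates are given because the array's build is not stated. Differences were centred on the median of all features with exactly 1 symbol. Counts and medians were checked on simulated data with planted differences. The named segments are those at the ceiling, the highest and lowest of D segments and of V families with 3 or more members, and, among segments above the threshold, the 5 most different in each direction; others were named after their values were seen. Members and lists were chosen with earlier results of these data known. Alternatives varied the reference, scaling, symbols, pseudogenes and saturated features. Calculations used pandas 2.3.3.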

Additional observations from a re-analysis of the deposited data

Results flagged for a closer look

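Features that name a heavy chain segment beside other symbols entered none of the counts, and they drew attention because they carry signal in data left unused. Of 8 such features, 6 exceeded both arrays' thresholds, against 32.3% of all features with exactly 1 symbol. The highest named Ighv9-1 and Ighv9-2 together, with 18.81 on replicate 1 and 18.50 on replicate 2. Family 7 had no feature with exactly 1 symbol and was named only here. Ighv7-2, named beside Igh-VS107, had 5.44 on replicate 1 and 5.03 on replicate 2 and did not pass. Ighv7-4, named beside the same symbol, passed with 7.59 and 7.85. The feature naming Ighv5-12 and Ighv5-15 had 8.31 and 9.59, whereas the feature naming Ighv5-12 alone had 14.87 and 12.93. The feature that names all 4 J segments beside Igha, Ighd, Ighg2c and Ighv14-2 had 12.09 and 12.14, and which of these genes gave its signal was not tested.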

How the results depend on the processing

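The count of 104 of 117 segments above the threshold stayed between 95 and 108 under all alternatives tried. The lower value was 95 of the 108 members left without the features whose annotation repeats the symbol. Without replicate 1 or replicate 2 the count was 104 to 106. The median signal of 12.34 was 11.97 to 12.75 without replicate 1 or replicate 2, and the median centred difference ran from -0.45 after quantile normalization to -0.34. The 12 segments over 2-fold higher on replicate 1 became 11 to 15, and 0 were so on replicate 2 throughout. Leaving out pseudogenes took the segments at the ceiling from 2 to 1, since Ighv1-2 is one. The alternatives on repeated symbols, equal values, centring on features above the threshold and ceiling differences were chosen after seeing the data. No paired analysis was possible because there is only 1 group.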
